A study of Mus musculus with 14 samples.

Results

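The miR-15/16 family and its relatives miR-103 and miR-107 are microRNAs (miRNAs) whose seeds, the bases at positions 2 to 8 that pair with target transcripts, hold the same GCAGCA stretch. Members were chosen by name on the array, as mmu-miR-15a, mmu-miR-15b, mmu-miR-16, mmu-miR-195, mmu-miR-322, mmu-miR-497, mmu-miR-103 and mmu-miR-107 (written without the species prefix from here on), which are 8 of the 566 mouse miRNAs it measures, with their star (minor-strand) forms left out. The samples were corpus callosum of male mice, the white matter tract that joins the hemispheres, taken as punches of the affected area. Controls ate a normal diet (control, n = 4). The 4wd group was fed powdered chow holding 0.2 to 0.4% cuprizone (CPZ), a copper chelator under which oligodendrocytes die and myelin is lost, for 4 weeks (n = 4). The 2dr group had the same 4 weeks of CPZ and then 2 days of regular diet (n = 4), and the 2wr group the same CPZ and then 2 weeks of regular diet (n = 2). The labels number samples within a group without saying whether each came from a separate mouse, so the p-values measure the spread between these samples. The study's methods count the miRNA data in mice per group, with more mice in each group than the 2 arrays of 2wr.

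MiRNAs of this family are known for holding back the cell cycle and cell survival: cyclins, cyclin-dependent kinases and BCL2 are among their textbook targets, and miR-15a and miR-16 were described as lost in a human leukaemia. MiR-195 and miR-497 are made from 1 shared transcript, miR-322 is the mouse counterpart of human miR-424 and is linked to muscle differentiation, and miR-103 and miR-107 lie within genes of pantothenate kinases and are linked to lipid and glucose metabolism. MiRNAs are required for oligodendrocyte differentiation and myelin formation.

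The mature sequences are shown to set out which members a seed ties together and how little separates some of them. They are the RefSeq forms (assembly GRCm38.p6), 5′ to 3′, with seed bases 2 to 8 in capitals. The array's names give no arm, and the form that holds the GCAGCA stretch was taken; the probes' own sequences were not analysed here.
miR-15a: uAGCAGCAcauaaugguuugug
miR-15b: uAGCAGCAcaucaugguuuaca
miR-16: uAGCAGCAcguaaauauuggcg
miR-195: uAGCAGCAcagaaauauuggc
miR-322: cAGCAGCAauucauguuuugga
miR-497: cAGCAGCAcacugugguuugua
miR-103: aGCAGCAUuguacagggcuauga
miR-107: aGCAGCAUuguacagggcuauca

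The 6 members of the miR-15/16 family have the seed AGCAGCA, with the GCAGCA stretch at bases 3 to 8. In miR-103 and miR-107 the stretch lies 1 base nearer the 5′ end, at bases 2 to 7, so their seed is GCAGCAU. Of 1679 mouse mature names in RefSeq, 10 have the first seed and 2 have the second. MiR-103 and miR-107 differ by a single substitution, G22C, with positions counted from 1 at the 5′ end of miR-103. Within the miR-15/16 family pairs are 3 to 11 base changes apart, with miR-16 and miR-195 (3) and miR-15a and miR-15b (4) the closest, and members of different seeds are 9 to 12 changes apart. Near-identical miRNAs can share signal on a hybridization array, and how far the probes tell miR-103 from miR-107, or miR-16 from miR-195, was not tested.

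By genome position the members form several units in GRCm38.p6. Mir15a lies within 10 kb of Mir16-1 in the noncoding gene Dleu2 on chromosome 14, and Mir15b lies within 10 kb of Mir16-2 in Smc4, a condensin subunit gene, on chromosome 3. The miR-16 signal therefore adds the product of both loci. Mir195a and Mir497 neighbour each other on chromosome 11. Mir322 lies in C430049B03Rik on chromosome X with Mir503, Mir351, Mir542 and the Mir450 genes. Mir103-1 and Mir103-2 lie in Pank3 on chromosome 11 and in Pank2 on chromosome 2, and Mir107 in Pank1 on chromosome 19.

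Signals are given on a log2 scale after each array was divided by its 75th percentile over the 170 miRNAs detected on all 14 arrays, so that 0 is that percentile. All 8 members were detected on all 14 arrays and were tested, among 225 tested miRNAs. Before scaling, the arrays detected between 181 and 287 mouse miRNAs, and their summed signal ran from 45664 to 173924 units. The summed signal was 85417 to 173924 in control and 50187 to 90452 at 4wd. The arrays lay on 2 slides: 2 control, 2 4wd, 3 2dr and 1 2wr array on slide 1, and 2, 2, 1 and 1 on slide 2. In bulk tissue, fewer cells that hold a miRNA and less of it per cell cannot be told apart.

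**Figure D1:**
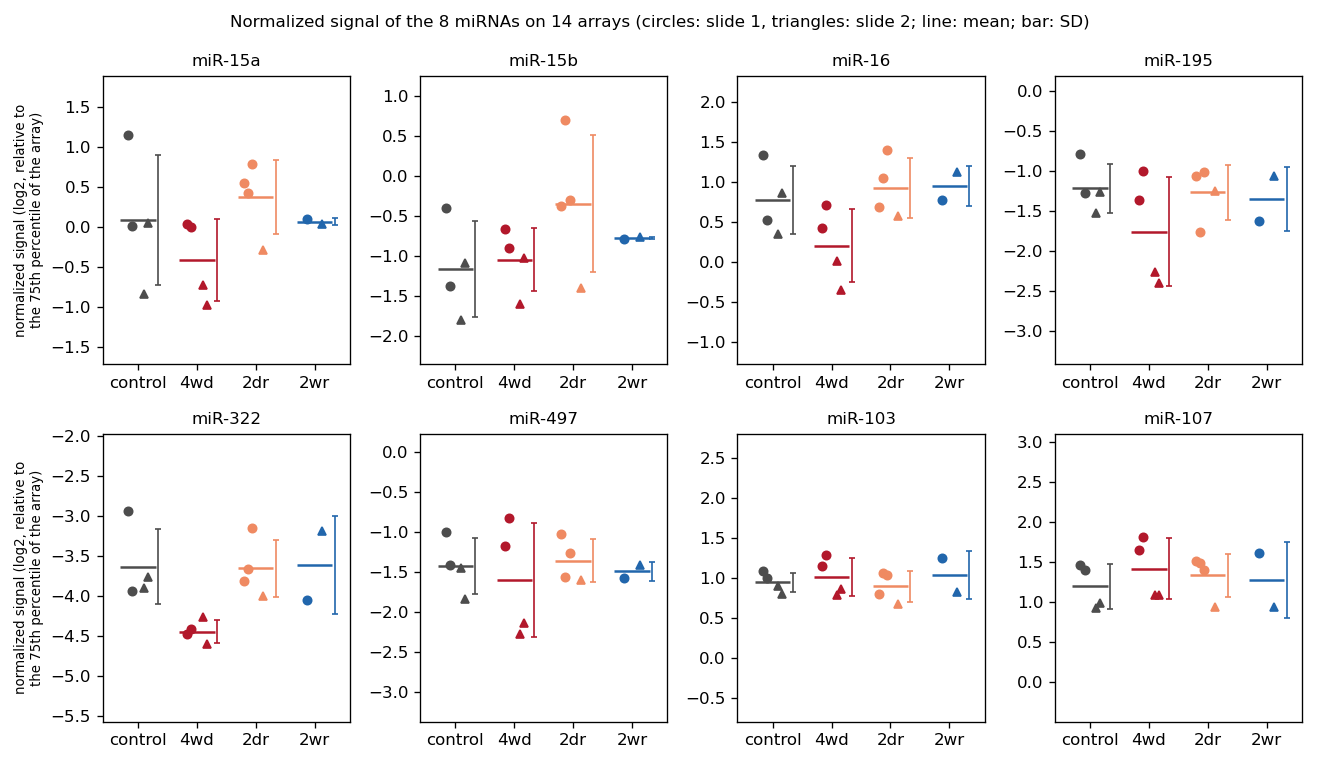
Normalized signal (log2, relative to the 75th percentile of the array) of each miRNA on each array, by group, with circles for slide 1, triangles for slide 2, a line at the group mean and a bar of 1 SD; every panel spans the same range of log2 units. The arrays of miR-322 at 4wd sit between -4.61 and -4.27, below every array of the other groups, while the groups of the other 7 miRNAs overlap at 4wd and control.

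The first comparison asked which members differed in the demyelinated tissue. Of the family, miR-322, miR-16, miR-195 and miR-15a had lower means at 4wd than in control, by 0.81 to 0.51 on the log2 scale, although with normexp background correction miR-322 and miR-195 were 0.85 and 0.11 higher, while miR-15b, miR-103 and miR-107 lay within 0.21 of control and were lower without scaling. None of the 8 passed the test (limma, adjusted p under 0.05 and at least 2-fold), against 1 of 225 tested miRNAs (0.444%), miR-155. That miRNA was detected on 0 control arrays and 1 4wd array, and was tested because all 2dr arrays detected it. Without adjustment, 1 of 8 members had limma p under 0.05, miR-322, against 10.2% of all tested. In data simulated for this comparison, 40 of 225 miRNAs were changed and the noise was independent between miRNAs and arrays. There, 2-fold changes were called in 46.8% of cases and 4-fold changes in 85.2% at an adjusted p under 0.05 with no minimum fold. How many miRNAs truly changed in the tissue is not known, so these shares hold for that setting only.

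MiR-322, the X-linked member, measured -2.94, -3.94, -3.91 and -3.77 in control. Its 4wd arrays read -4.48, -4.42, -4.27 and -4.61. Every 4wd array was below every control array, a separation downwards that 2.67% of tested miRNAs showed. The difference was -0.81 (SE 0.28, 95% interval -1.41 to -0.20, 1.75-fold lower; limma adjusted p = 0.402). Over the alternatives that kept this direction the limma adjusted p ran from 0.169 to 0.73. The exact permutation test gave p = 0.0286 (two-sided), the smallest that 4 against 4 arrays allow, and 0.686 after adjustment over the 48 such tests of the 8 members in 6 comparisons. The value was -1.01 within slide 1 and -0.60 within slide 2. With 1 array left out it ran from -0.91 to -0.57, and the drop was smallest without the first control array, the highest of the control arrays. Its 2 probes gave -0.91 and -0.73. Its total signal was 11.2 to 81.6 units, and its direction was not the same with normexp. There it was 0.85 higher at 4wd (limma adjusted p = 0.0695), where the median of all tested miRNAs was 0.84 higher, so that it lay 0.01 above that median. The normexp setting adds an offset of 50 to every spot before scaling, and the 2 probes had mean spot signals of 5.06 to 44.7 and 12.3 to 74.5. For so dim a miRNA the effects of offset, scaling and background correction cannot be told apart.

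MiR-16, the member made from 2 loci, read 1.33, 0.52, 0.35 and 0.86 in control and 0.42, 0.71, 0.01 and -0.35 at 4wd. The groups overlapped, and the 2 lowest 4wd arrays were both on slide 2. The difference was -0.57 (SE 0.29, limma adjusted p = 0.553), and -0.37 and -0.77 within the slides.

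MiR-15a, its neighbour at Dleu2, read 1.15, 0.02, -0.84 and 0.05 in control and 0.04, 0.00, -0.72 and -0.97 at 4wd. One control array stood above all others and the groups overlapped, with a difference of -0.51 (SE 0.39, limma adjusted p = 0.719). Without that array the difference was -0.16, and it was -0.82 without the third control array and -0.32 without the fourth 4wd array. MiR-15b, its closest relative in sequence, differed by 0.12 (SE 0.41, limma adjusted p = 0.981), with control arrays from -1.81 to -0.40 and 4wd arrays from -1.60 to -0.67.

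MiR-195, the neighbour of miR-497, read -0.79, -1.28, -1.53 and -1.27 in control and -1.37, -1.0, -2.26 and -2.40 at 4wd, with the 2 lowest arrays again on slide 2. Its difference was -0.54 (SE 0.32, limma adjusted p = 0.553), and -0.14 within slide 1 against -0.93 within slide 2; it was -0.32 without the fourth 4wd array. MiR-497 differed by -0.18 (SE 0.32, limma adjusted p = 0.953), with 0.20 within slide 1 and -0.56 within slide 2, so its direction was not the same on both slides.

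MiR-103 and miR-107 had the tightest intervals. MiR-103 read 1.09, 1.01, 0.91 and 0.81 in control and 1.15, 1.29, 0.79 and 0.87 at 4wd, a difference of 0.07 with a 95% interval of -0.34 to 0.48. MiR-107 read 1.47, 1.41, 0.93 and 0.99 in control and 1.66, 1.82, 1.09 and 1.09 at 4wd, a difference of 0.21 with an interval of -0.33 to 0.76. The limma adjusted p-values were 0.973 and 0.845. Both values turned negative without scaling and with normexp, where the median of all tested miRNAs stood at -0.93 and 0.84, and miR-103 was at -0.0089 in the authors' processed values.

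Taken by count, 5 of 8 members were below 0 at 4wd, against 48.0% of all tested miRNAs. The median log2 fold change was -0.35 over the 8, -0.52 over the 6 of the miR-15/16 family, 0.14 over miR-103 and miR-107, and 0.03 over all 225 tested. The members' median was -0.10 without the first control array and -0.16 without the third or the fourth 4wd array. With normexp it was -0.04, where the median of all tested miRNAs was 0.84; relative to that median it was -0.88, and -0.38 in the main scaling. The 2 probes of each member had the same sign for 8 of 8 members, with gaps of at most 0.18. In the other comparisons this held for 8 of 8 at 2dr and at 2wr against 4wd, and for 7 at 2wr against control. It held for 5 at 2wr against 2dr and for 4 at 2dr against control, with a rounded value of 0.00 counted as a different sign.

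**Figure D2:**
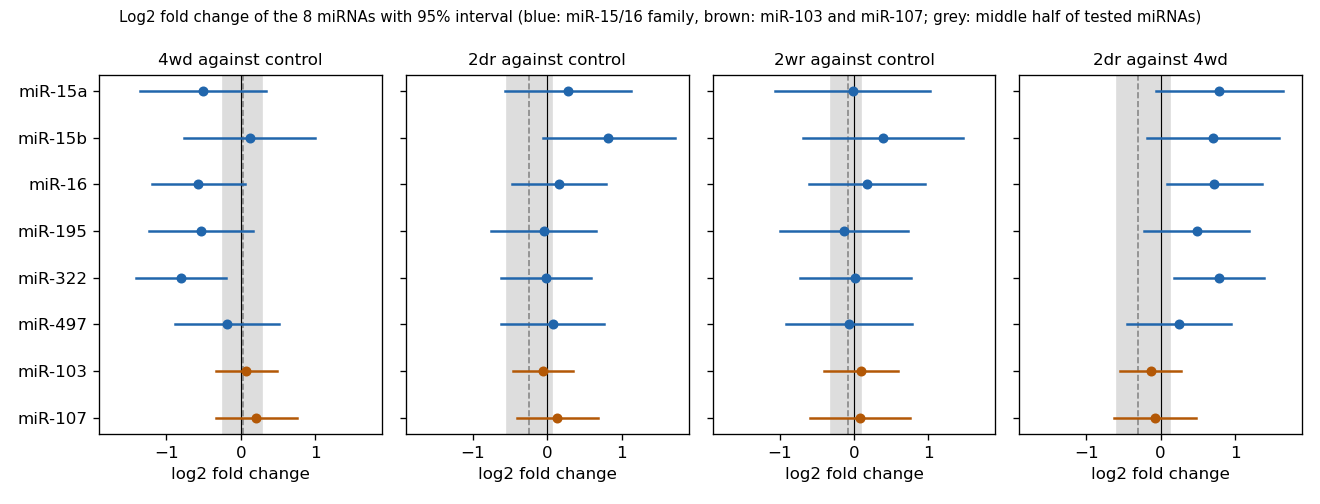
Log2 fold change of each miRNA with its 95% interval in 4 comparisons (limma), in blue for the miR-15/16 family and brown for miR-103 and miR-107; the grey band is the middle 50% of the 225 tested miRNAs and the dashed line their median. At 2dr against 4wd the 6 blue points lie between 0.25 and 0.79, above the dashed line at -0.30, and miR-103 and miR-107 lie at -0.13 and -0.08.

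The comparison of 2dr with 4wd asked what changed in the first days after CPZ was withdrawn. All 6 family members had higher means at 2dr, by 0.25 to 0.79, although with normexp miR-322, miR-497 and miR-195 were lower, while miR-103 and miR-107 were 0.13 and 0.08 lower. No member passed the test, as did 0 of 225 miRNAs (0.0%). Without adjustment 2 of 8 had limma p under 0.05, miR-16 and miR-322, both higher, against 2.67% of tested miRNAs higher and 15.6% lower.

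MiR-322 read -3.82, -3.67, -4.01 and -3.16 at 2dr, all above its 4wd arrays, a separation upwards that 0.889% of tested miRNAs showed. The difference was 0.78 (SE 0.28, 95% interval 0.18 to 1.39, 1.72-fold; limma p = 0.0156, adjusted p = 0.206; exact permutation p = 0.0286), and 0.90 and 0.43 within the slides. With normexp it was 0.59 lower, where the median of all miRNAs was 0.71 lower. This comparison and the first share the 4wd arrays.

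MiR-16 read 0.68, 1.04, 0.57 and 1.39 at 2dr, which overlapped 4wd through its highest 4wd array. The difference was 0.72 (SE 0.29, 95% interval 0.09 to 1.36; limma p = 0.0284, adjusted p = 0.214; exact permutation p = 0.0857), and 0.48 and 0.74 within the slides. MiR-15a read 0.55, 0.43, -0.28 and 0.79 at 2dr, 0.79 above 4wd (SE 0.39, limma adjusted p = 0.307), and 0.58 and 0.57 within the slides.

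MiR-15b had the widest spread: its 2dr arrays read -0.38, 0.70, -1.40 and -0.31, so that 1 array was the highest and another among the lowest of its 14. It was 0.70 above 4wd (SE 0.41, limma adjusted p = 0.395), with 0.79 within slide 1 and -0.09 within slide 2; it was 0.35 without the highest 2dr array and 1.05 without the lowest. MiR-195 differed by 0.49 (SE 0.32, limma adjusted p = 0.441) and miR-497 by 0.25 (SE 0.32, limma adjusted p = 0.632). For this neighbouring pair the direction was not the same on both slides: -0.09 and 1.08 for miR-195, and -0.28 and 0.61 for miR-497. With normexp they were at -0.0084 and -0.15.

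MiR-103 and miR-107 differed by -0.13 (95% interval -0.54 to 0.28, limma adjusted p = 0.671) and -0.08 (-0.63 to 0.47, adjusted p = 0.84). Both values became positive without scaling, with normexp, with the percentile taken over all mouse miRNAs and in the authors' processed values, at 0.16 to 0.49.

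The median log2 fold change at 2dr against 4wd was 0.71 over the miR-15/16 family, 0.59 over the 8 members and -0.30 over all tested miRNAs, of which 32.0% were above 0. Relative to the median of all tested miRNAs, the members' median was 0.89, and 0.94 with normexp. Of the 2dr arrays 3 lay on slide 1 and 1 on slide 2, whereas 4wd had 2 on each. With the slide as a block the members' median was 0.46, and 0.70 relative to that of all tested miRNAs.

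Against control, the 2dr group had no member past the test, beside 2 of 225 miRNAs (0.889%), miR-146a and miR-155. The members' values ran from -0.06 for miR-103 to 0.82 for miR-15b, with a median of 0.10, against -0.25 over all tested. The largest, miR-15b, had an SE of 0.41 (limma adjusted p = 0.422, exact permutation p = 0.2), and was 0.89 within slide 1 and 0.05 within slide 2, where 1 2dr array lay; without the second 2dr array it was 0.47. No member had an unadjusted limma p under 0.05, whereas 4.0% of all tested did so with a higher and 8.0% with a lower level. MiR-322 was at -0.02 (95% interval -0.63 to 0.58).

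The 2wr group had 2 arrays, and an exact permutation test against 4 arrays cannot go below p = 0.133. No member passed the test against control, 4wd or 2dr, and neither did any of the 225 tested miRNAs (0.0% in each). Without adjustment, 0, 1 and 0 members had limma p under 0.05 in these comparisons, against 0.889%, 4.89% and 0.889% of all tested. Against control the members lay between -0.13 for miR-195 and 0.39 for miR-15b, with a median of 0.05 against -0.08 over all tested. MiR-322 read -4.05 and -3.19 at 2wr, and differed from control by 0.02 (95% interval -0.72 to 0.76). The difference was -0.61 within slide 1 and 0.65 within slide 2, with 1 2wr array on each.

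Against 4wd, both 2wr arrays of miR-322 and of miR-16 (0.77 and 1.12) were above all 4wd arrays, a separation upwards that 4.89% of tested miRNAs showed. MiR-322 was 0.83 higher (SE 0.34, limma p = 0.0323, adjusted p = 0.886; exact permutation p = 0.133) and 0.62 lower with normexp, where the median of all miRNAs was 0.73 lower. It was 1.26 without the first 2wr array and 0.39 without the second. MiR-16 was 0.75 higher (SE 0.36, limma adjusted p = 0.886). The lowest of the 8 was miR-107, at -0.14. Against 2dr the members ran from -0.43 for miR-15b to 0.15 for miR-103.

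The order of the group means can be read from these values. MiR-322 was lowest at 4wd, a place it lost with normexp, at -4.45 ± 0.14 (SD, n = 4), and lay at -3.64 ± 0.47 in control (n = 4), -3.66 ± 0.36 at 2dr (n = 4) and -3.62 ± 0.61 at 2wr (n = 2), which did not differ beyond their spread. MiR-16 was also lowest at 4wd, at 0.20 ± 0.46 (SD), against 0.77 ± 0.43, 0.92 ± 0.37 and 0.95 ± 0.25 in control, 2dr and 2wr. MiR-15a ran from -0.41 ± 0.51 (SD) at 4wd to 0.38 ± 0.46 at 2dr. MiR-103 stayed between means of 0.90 and 1.04 and miR-107 between 1.20 and 1.42, with no group means apart beyond their spread.

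Several members differed between the slides. With the groups in the fit, slide 2 was lower than slide 1 for miR-107 by 0.57 (limma adjusted p = 0.00111), and for miR-15a by 0.78, miR-103 by 0.31 and miR-497 by 0.56 (limma adjusted p = 0.0183, 0.0355 and 0.0468). These are 4 of 8 members, against 12.4% of all tested miRNAs lower on slide 2 and 18.2% higher; the count was 0 with normexp or without scaling, and 7 with the percentile over all mouse miRNAs. MiR-15b, miR-16 and miR-195 differed by -0.66, -0.38 and -0.37, and miR-322 by -0.09, none of them past the test. Without the groups fitted, the 2 probes of miR-103 disagreed in sign, at -0.49 and 0.16 for slide 2 minus slide 1. Those of miR-16 also disagreed, at 0.13 and -0.61, while both probes of every other member were lower on slide 2. The slide difference went with the signal: its median was 0.45 over the 75 dimmest of the tested miRNAs, -0.05 over the middle 75 and -0.29 over the 75 brightest. Of the members, 5 lie among the brightest, 2 in the middle and 1, miR-322, among the dimmest. Within-slide values are given above for some members and comparisons only. With the slide as a block, miR-322 at 4wd was -0.81 against control (limma adjusted p = 0.225). Control and 4wd each had 2 arrays on either slide, so the block could change the p-value but not this difference.

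**Figure D3:**
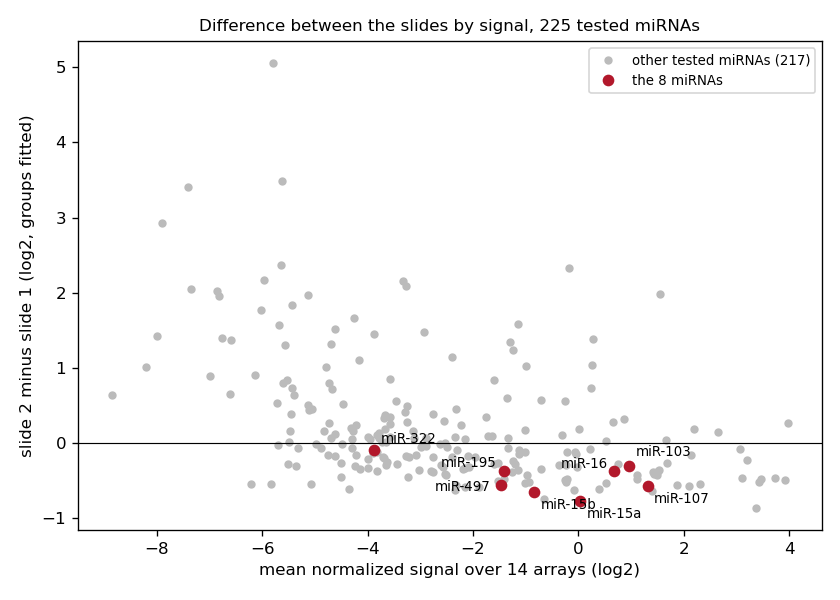
Difference between slide 2 and slide 1 (log2, with the groups fitted) against the mean normalized signal over 14 arrays, for the 8 miRNAs in red and the other 217 tested in grey. The 8 red points lie between -0.78 and -0.09, and miR-322, the leftmost, is nearest to 0.

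Many pairs of the miR-15/16 family varied together from array to array, and some of them also within groups. Over the 14 arrays the Pearson r between pairs of the family had a median of 0.67 (0.22 to 0.87), and 0.46 (-0.12 to 0.87) after group and slide means were removed. The highest of these residual values were 0.87 for the neighbours miR-195 and miR-497, 0.83 for miR-15a and miR-16, 0.82 for miR-15a and miR-322 and 0.80 for miR-16 and miR-322. MiR-322 is not encoded near miR-15a or miR-16. MiR-15b, the neighbour of the other miR-16 locus, had 0.44 with miR-16 and -0.12 with both miR-195 and miR-497. MiR-103 and miR-107, which differ by 1 base, had 0.85 before and 0.38 after removal, and across the seeds the median went from 0.33 to 0.00. The arrays share their scaling and slides, so these are descriptions with no test.

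**Figure D4:**
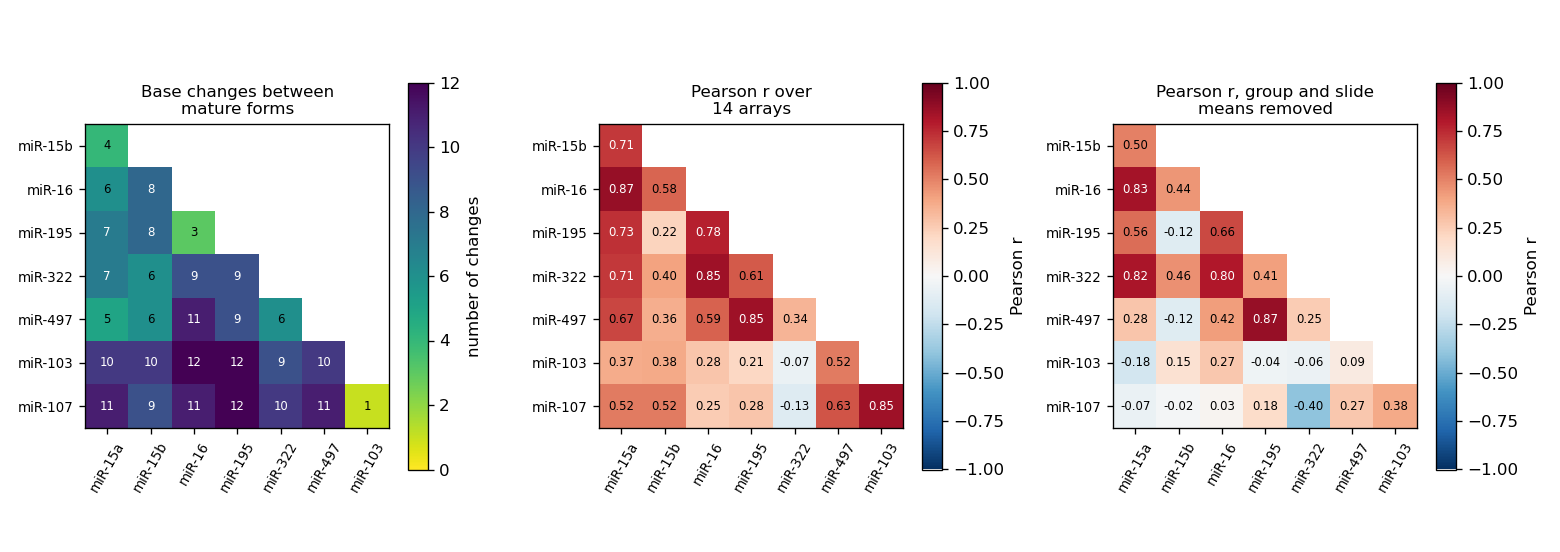
Pairs of the 8 miRNAs: the number of base changes between their mature forms, Pearson r of their normalized signal over 14 arrays, and the same after group and slide means were removed. The pair with 1 base change, miR-103 and miR-107, has r of 0.38 in the third panel, and miR-195 with miR-497, 9 changes apart, has 0.87.

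Among 162 other miRNAs detected on all arrays, those most like the mean of the 8 members were miR-106b (Pearson r 0.94 over 14 arrays, and 0.87 with slide means removed), miR-451 (0.86 and 0.76), miR-350 (0.85 and 0.75), miR-23b (0.84 and 0.63) and miR-100 (0.83 and 0.74). With slide means removed, miR-26b (0.73) took the place of miR-23b. Over the arrays as they are, the median candidate had -0.03 and the 90th percentile was 0.69. With slide means removed these were -0.17 and 0.52. MiR-106b, a relative of the miR-17 family, was most alike to miR-15a (0.94 after group and slide were removed), and had 0.05 with miR-107. Its own values were -0.34 at 4wd against control (limma adjusted p = 0.765) and 0.59 at 2dr against 4wd (limma adjusted p = 0.305).

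**Figure D5:**
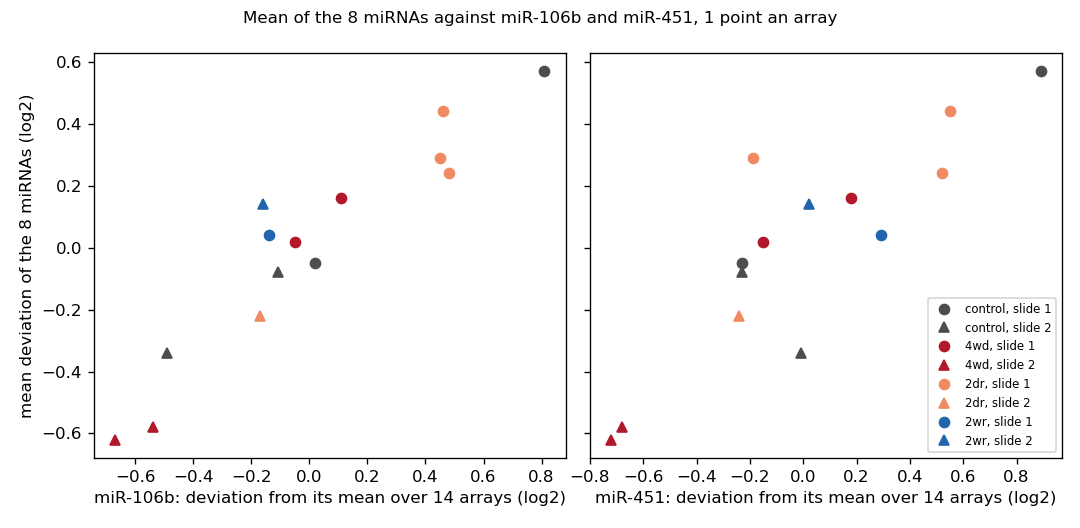
Mean deviation of the 8 miRNAs from their own means over 14 arrays, against the deviation of miR-106b and of miR-451 (log2), 1 point an array, coloured by group, with circles for slide 1 and triangles for slide 2. The members' mean runs from -0.62 on a 4wd array of slide 2 to 0.57 on a control array of slide 1, at the ends of both miRNAs' ranges.

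MiR-451 marks red blood cells, which are also rich in miR-16. It was -0.45 at 4wd against control and 0.50 at 2dr against 4wd (limma adjusted p = 0.617 and 0.402). The other tested red blood cell marker, miR-486, was -0.28 and -0.86 in the same comparisons (limma adjusted p = 0.965 and 0.46), so its sign at 2dr against 4wd was opposite. Of the 3 red blood cell markers, miR-144 was detected on no array, and the summed scaled signal of the 3 was 0.465 to 0.986 in control, 0.363 to 0.602 at 4wd, 0.463 to 0.77 at 2dr and 0.558 to 0.648 at 2wr. The part of blood in the values of miR-16 and its relatives was not tested.

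Each marker of the other cell types was detected on at least 1 array. The neuronal markers, miR-219 and miR-338-3p were detected on all 14, whereas miR-155 was detected on 0 control arrays, miR-223 on 0 4wd arrays and miR-142-5p on 1 2wr array alone. The 3 oligodendrocyte miRNAs (miR-219 and both arms of miR-338) summed to 1.96 to 10.9 in control, 1.44 to 2.63 at 4wd, 1.76 to 6.73 at 2dr and 3.1 to 3.54 at 2wr. The 4 neuronal miRNAs summed to 23.2 to 30.1 in control, 16 to 41 at 4wd, 19.8 to 29.8 at 2dr and 21 to 30.5 at 2wr. The 5 myeloid and lymphoid miRNAs summed to 0.0981 to 0.313 in control, 0.119 to 0.405 at 4wd, 0.134 to 0.467 at 2dr and 0.113 to 0.461 at 2wr. The 4 vessel miRNAs summed to 0.79 to 1.26, 0.723 to 1.11, 0.686 to 1.09 and 0.816 to 0.982 in the same order. The ranges of the 4 groups overlapped for each list except that of the oligodendrocytes, where both 2wr arrays were above all 4wd arrays. MiR-155 was the 1 miRNA of these lists past the test, in both the 4wd and the 2dr group compared with control. It was detected on 1 4wd array and on all 4 2dr arrays, so its 4wd call rests largely on readings below detection. Their part in the members' values was not tested.

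The partners of miR-322 in its cluster did not reach the level of a test. Of 11 names listed for miR-503, miR-351, miR-424, miR-542 and miR-450, 8 were on the array, 7 were detected on no array and 0 were tested; miR-450a-3p was detected on 4 of 14 arrays. MiR-503 is shown because its seed is 1 base from the family's, with A8G counted against miR-15a.
miR-503: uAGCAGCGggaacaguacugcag
Of the members' star forms, 4 were on the array and all 4 were detected on no array.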

How the data were processed

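MiRNAs in total RNA of mouse corpus callosum were measured on 14 Agilent 1-colour (Cy3) miRNA arrays. The authors read each array with Feature Extraction 10.5.1.1, per the labels, and deposited intensity per spot with a total signal per miRNA; the deposited series table holds log2 values, which matched log2 of the total signal less a constant to within 0.01 for 559 or 560 of 560 miRNAs on 13 arrays and for 368 on the first 4wd array. Per the study's methods, the data were scaled to the 75th percentile of signal; whether that is the constant was not tested. The array's design names an older genome build, so no coordinates are printed.

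The total signal was divided by each array's 75th percentile over the 170 miRNAs detected on all arrays, floored at 0.00176 (the median over arrays of the lowest detected value) and taken to log2. A miRNA was tested where all arrays of some group detected it (225 miRNAs). All 14 arrays entered 1 limma fit (limma 3.58.1, R 4.3.3) with group as the only term and Benjamini-Hochberg adjustment over the 225; a call needed an adjusted p under 0.05 and a 2-fold change. Exact permutation tests (scipy 1.17.1) were two-sided. The number of arrays limits the precision. The adjusted p rule, without the 2-fold rule, was checked on data simulated for the comparisons with control alone. These gave 3.95% to 5.11% false calls among those made. The members, the partner and marker lists and the 5 most alike miRNAs were named by rules chosen with earlier results of these data known.

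Alternatives were normexp (offset 50, on the spots' median signal and background), quantile normalization, the percentile over all miRNAs, no scaling, the mean of the spots, the authors' values, a floor 4 times lower, other filters, the slide or the replicate number as a block, the 2 groups alone, the methods' test and leave-one-out fits over the arrays. No 2 arrays were copies: the closest differed by a median of 0.22 on the log2 scale.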

Additional observations from a re-analysis of the deposited data

Results flagged for a closer look

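No result met the rules for a closer look: in the 24 groups of 4 arrays that the 8 members give, 0 held an array set apart from the others by Dixon's test, where chance would mark about 1 in 20 groups.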

How the results depend on the processing

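In all 6 comparisons no member was called under any alternative that kept the adjusted p, the methods' test included, nor with any array left out. At an unadjusted p under 0.05 with no minimum fold, 1 member was called at 4wd against control, 2 at 2dr against 4wd and 1 at 2wr against 4wd. The arrays' number limits the precision, and 2wr rests on 2 arrays. Of 576 member values under the alternatives 75 had the other sign, in 37 of the 48 results. Of 672 with 1 array left out 47 had the other sign, in 24 results. None of these values was a call. Many of them could not turn. The other filters, the lower floor and the fits of 2 groups alone leave a member's fold change as it was. So does leaving out an array of a group outside the comparison. Among the values free to move, the share that turned is therefore larger. Without scaling, the members' median moved to -1.32, -0.30 and -0.37 in the 4wd, 2dr and 2wr comparisons with control, and 1.17 at 2dr and 0.89 at 2wr against 4wd, where the median of all tested miRNAs was -0.93, -0.66, -0.49, 0.27 and 0.44. With normexp the members' median was -0.04 at 4wd against control and 0.23 at 2dr against 4wd, beside 0.84 and -0.71 over all tested. With the slide as a block it was 0.46 at 2dr against 4wd, beside -0.23 over all tested. With 1 array left out it ran from -0.54 to -0.10 at 4wd against control, 0.41 to 0.74 at 2dr against 4wd and 0.16 to 0.50 at 2wr against 4wd, where 0.16 and 0.23 were without the third and the fourth 4wd array. The replicate block moved the median to 0.03 at 2wr against 4wd and to -0.29 at 2wr against 2dr, and called no member. The numbers were not taken to pair arrays, since not every same-numbered pair had a correlation of deviations above 0.1 (13 of 18 did, 5 did not, from -0.61 to 0.74). Slide means were not removed from these deviations and many same-numbered arrays share a slide. The correlations therefore cannot decide whether the numbers pair arrays. The numbers of the 2wr arrays come from their titles, another label numbers them differently, and under that numbering no other group shares them. The count of members that differed between slides, 4 as reported, was 0 with normexp, 0 without scaling and 7 with the percentile over all mouse miRNAs, and the slide difference of miR-322 was 0.14 without scaling. Beyond the change that each alternative makes by construction, the cause was not tested.

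With the 75th percentile over all mouse miRNAs, the sign turned for miR-103 (0.20) and miR-107 (0.24) at 2dr against 4wd, miR-195 (0.23), miR-322 (0.26) and miR-103 (0.23) at 2dr against control, miR-15a (0.15), miR-195 (0.044) and miR-497 (0.10) at 2wr against control, miR-107 (0.081) at 2wr against 4wd and miR-16 (-0.082) and miR-322 (-0.065) at 2wr against 2dr. Without scaling, the sign turned for miR-15b (-0.85), miR-103 (-0.90) and miR-107 (-0.76) at 4wd against control, miR-103 (0.44) and miR-107 (0.49) at 2dr against 4wd, miR-15a (-0.12), miR-16 (-0.25), miR-497 (-0.34) and miR-107 (-0.27) at 2dr against control, miR-15b (-0.029), miR-16 (-0.24), miR-322 (-0.40), miR-103 (-0.33) and miR-107 (-0.34) at 2wr against control and miR-107 (0.42) at 2wr against 4wd. With normexp, the sign turned for miR-195 (0.11), miR-322 (0.85), miR-497 (0.31), miR-103 (-0.22) and miR-107 (-0.18) at 4wd against control, miR-195 (-0.0084), miR-322 (-0.59), miR-497 (-0.15), miR-103 (0.16) and miR-107 (0.31) at 2dr against 4wd, miR-195 (0.10) and miR-322 (0.26) at 2dr against control, miR-15b (-0.044), miR-195 (-0.13), miR-322 (-0.62), miR-497 (-0.31) and miR-107 (0.20) at 2wr against 4wd and miR-16 (-0.032) and miR-322 (-0.023) at 2wr against 2dr. With quantile normalization, the sign turned for miR-322 (0.23) and miR-103 (0.044) at 2dr against control, miR-15a (0.059) and miR-497 (0.05) at 2wr against control, miR-103 (-0.019) at 2wr against 4wd and miR-322 (-0.037) at 2wr against 2dr. With the replicate block, the sign turned for miR-322 (-0.019), miR-103 (-0.021) and miR-107 (-0.17) at 2wr against control, miR-15b (-0.08), miR-497 (-0.19) and miR-103 (-0.092) at 2wr against 4wd and miR-16 (-0.13) at 2wr against 2dr. With the slide as a block, the sign turned for miR-497 (-0.073) and miR-107 (-0.0095) at 2dr against control and miR-195 (0.014), miR-497 (0.0032) and miR-107 (0.087) at 2wr against 2dr. In the authors' processed values, the sign turned for miR-103 (-0.0089) at 4wd against control, miR-103 (0.22) and miR-107 (0.26) at 2dr against 4wd, miR-195 (0.21), miR-322 (0.24) and miR-103 (0.21) at 2dr against control, miR-15a (0.12), miR-195 (0.012) and miR-497 (0.073) at 2wr against control, miR-107 (0.087) at 2wr against 4wd and miR-16 (-0.094) and miR-322 (-0.077) at 2wr against 2dr.

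Over the leave-one-out fits, the range of values spanned 0 for miR-15b (-0.10 to 0.38), miR-497 (-0.44 to 0.042) and miR-103 (-0.017 to 0.15) at 4wd against control. The same held for miR-107 (-0.19 to 0.056) at 2dr against 4wd. The same held for miR-15a (-0.029 to 0.63), miR-16 (-0.0023 to 0.34), miR-195 (-0.15 to 0.11), miR-322 (-0.19 to 0.21), miR-497 (-0.073 to 0.21) and miR-103 (-0.11 to 0.018) at 2dr against control. The same held for miR-15a (-0.33 to 0.33), miR-195 (-0.41 to 0.15), miR-322 (-0.41 to 0.45), miR-497 (-0.21 to 0.073), miR-103 (-0.12 to 0.30) and miR-107 (-0.26 to 0.42) at 2wr against control. The same held for miR-497 (-0.11 to 0.37), miR-103 (-0.19 to 0.23) and miR-107 (-0.48 to 0.20) at 2wr against 4wd. The same held for miR-16 (-0.15 to 0.20), miR-195 (-0.36 to 0.20), miR-322 (-0.39 to 0.48), miR-103 (-0.063 to 0.36) and miR-107 (-0.40 to 0.28) at 2wr against 2dr.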
